A study of Mus musculus with 10 samples.

Results

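Immediate early genes and their close relatives, the genes that neurons transcribe within minutes to hours of firing, were followed in the cortex of Atad3 nKO mice and control littermates. The 35 genes were taken by name from a list of known activity-induced genes, and all 35 were found among the 24972 genes of the deposited tables. Total RNA had been sequenced from 10 male mice of the strain C57BL/6, 2.5 months old, perfused through the heart with cold PBS before the cortex was taken and frozen. There were 5 control libraries and 5 nKO libraries, each from 1 animal, so the spread reported here is the spread between animals together with that of sampling and library making. The labels state neither what nKO stands for, nor a driver line, nor the deleted part of the gene, and for controls they give only that they were littermates. The libraries held 14812639 to 24161361 estimated counts, the deepest being control 3. Atad3a, the targeted gene, was at 8.95 to 14.4 CPM (estimated counts relative to library size, TMM-scaled) in the nKO libraries and at 22.2 to 26.6 CPM in the control libraries.

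When a neuron fires, calcium entering through NMDA receptors and voltage-gated channels activates kinases that phosphorylate CREB and the partners of SRF, factors already bound upstream of the immediate early genes. Transcription starts without new protein synthesis, and most of these RNAs are gone again soon after the stimulus ends. The first products are mainly transcription factors (Fos, Jun, Egr and Nr4a families, Npas4), together with phosphatases that switch the kinases off again and with proteins that act at the synapse or are secreted. In cortex their RNA levels therefore depend on what an animal did and how it was handled shortly before death, and such records are not among the labels used here.

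No member passed the test between the genotypes, while many differed several-fold between animals of the same genotype. All 35 members passed the filter on low counts. By edgeR's quasi-likelihood test with Benjamini-Hochberg adjustment over 14378 genes, 0 of 35 members passed 5%, where the share over all tested genes was 0.0139% (2 genes, Atad3a and, named after its values were seen, Fam155a). No member had an unadjusted p under 0.05 (0 of 35, against 5.65% of all tested genes), and the smallest adjusted p of a member was 0.82. With DESeq2, 0 members passed 5% and 1, Klf4, had an unadjusted p under 0.05. With limma-voom both counts were 0. Over all alternatives 0 members passed 5%, and 0 to 5 had an unadjusted p under 0.05. The 5 came without control 4 (Dusp4, Egr1, Fosl2, Klf4 and Ptgs2), and there were 3 with effective lengths as offsets, an alternative described below (Vgf, Klf4 and Nptx2) and 3 without both control 1 and nKO 4 (Jund, Nptx2 and Vgf). The fitted level was higher in nKO for 27 members and lower for 8, against 47.8% higher over all tested genes. The median log2 fold change was 0.17 over the members and -0.01 over all tested genes. This lean moved with single libraries of either genotype, in both directions. The median reached 0.26 without control 1, 0.28 without control 4 and 0.29 without nKO 4. Without control 3, 19 of 35 members had a higher fitted level and the median was 0.04, without nKO 2 it was 23 with a median of 0.06, and without nKO 1 it was 26 with a median of 0.08. In no member were the 5 nKO libraries clear of the 5 control libraries on the CPM scale (1.38% of all tested genes). The median SE of a member's log2 fold change was 0.31, compared with 0.12 over all genes, and the 95% interval lay within 2-fold in either direction for 18 members and within 1.5-fold for 6. For the other members a 2-fold difference was within the interval. Because whole cortex was extracted, fewer cells with a transcript and less transcript per cell cannot be told apart. In the labels the controls have the first running numbers and the nKO animals the later ones. If these follow the order of handling, that order and genotype cannot be told apart either.

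**Figure D1:**
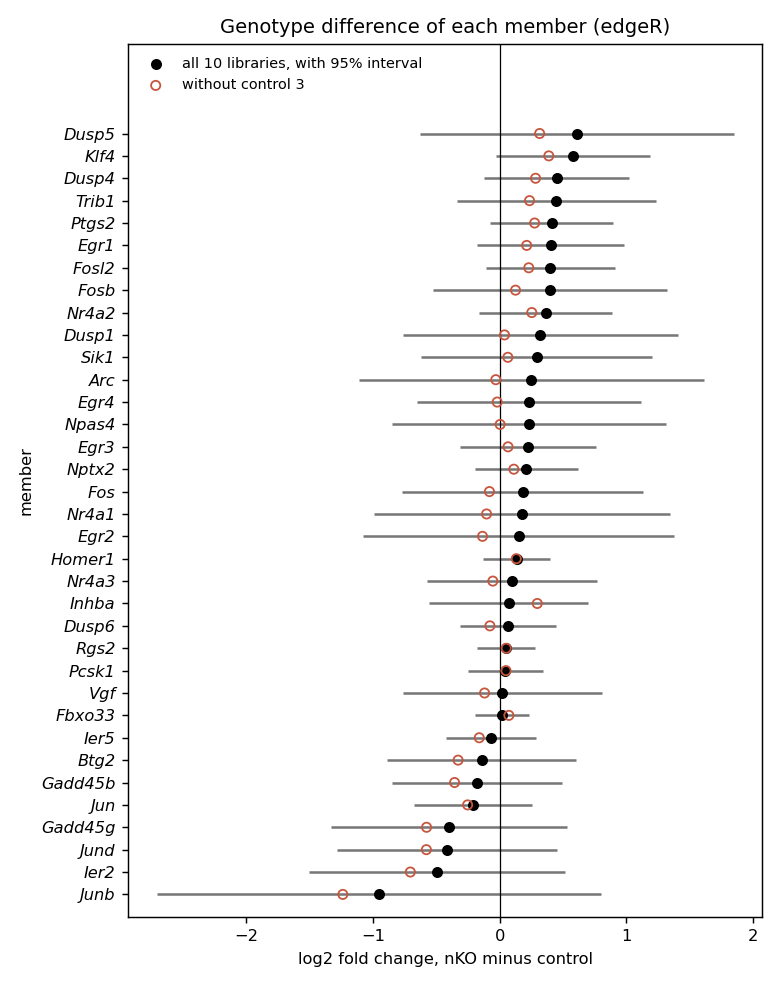
Log2 fold change, nKO minus control, of the 35 members by edgeR, with the 95% interval (grey line) over all 10 libraries (filled points) and the estimate without control 3 (open points). Every interval includes 0, Junb has the widest one (-2.70 to 0.80), and most open points sit to the left of the filled ones.

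Between animals the levels of most members were widely spread. The SD of log2 CPM within groups (pooled over both groups, prior count 2) had a median of 0.58 over the members and 0.20 over all tested genes, and 22 of 35 members had an SD of at least 0.5 (6.02% of all tested genes). The dispersion that edgeR fitted was above the trend for genes of the same abundance in 33 of 35 members (27.5% of all tested genes). The exceptions were Rgs2 and Fbxo33, which lay just under it. Over the 10 libraries the highest CPM was 23.5 times the lowest for Junb, 16.2 times for Dusp5 and 12.9 times for both Arc and Egr2, but 1.37 times for Fbxo33. The spread was larger among controls than among nKO animals in 31 of 35 members (64.8% of all tested genes), with a median SD of 0.68 in controls and 0.41 in nKO. Without control 3 this held for 15 of 35 members, and the share over all tested genes was not computed for that setting. The larger spread among controls in most members thus depended on that animal.

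**Figure D2:**
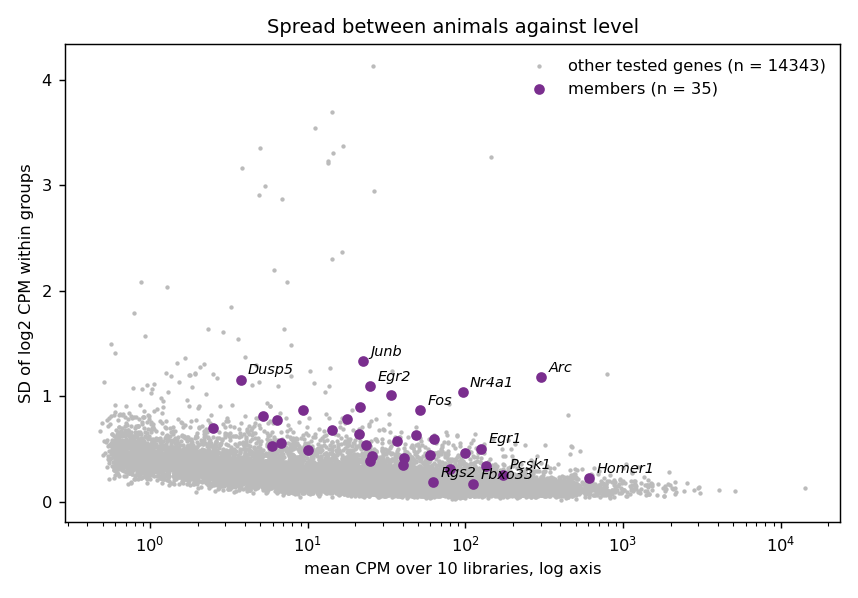
SD of log2 CPM within groups (vertical axis) against mean CPM over the 10 libraries (horizontal log axis) for the members and the other tested genes. Arc (SD 1.18), Nr4a1 (1.04) and Fos (0.87) lie far above genes of like abundance, while Homer1 (0.22), Rgs2 (0.18) and Fbxo33 (0.17) lie among them.

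Control 3 was the animal with the lowest levels. It had the lowest CPM of 24 of 35 members, compared with 18.6% of all tested genes, and on average a member stood 1.10 log2 units under its own mean over the 10 libraries there (mean deviation -1.10). nKO 4 was next with a mean deviation of -0.39, though it held the lowest value of only 3 members (19.7% of all tested genes). At the other end stood nKO 2 (0.44), control 1 (0.37), nKO 1 (0.36) and control 4 (0.29). The other libraries lay between -0.16 and 0.12. nKO 1 or nKO 2 held the highest value of 14 members (12.5% of all tested genes) and control 1 that of 8 (25.6% of all tested genes). With control 3 set aside, nKO 4 was lowest in 17 of 35, and the share over all tested genes was not computed for that setting.

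**Figure D3:**
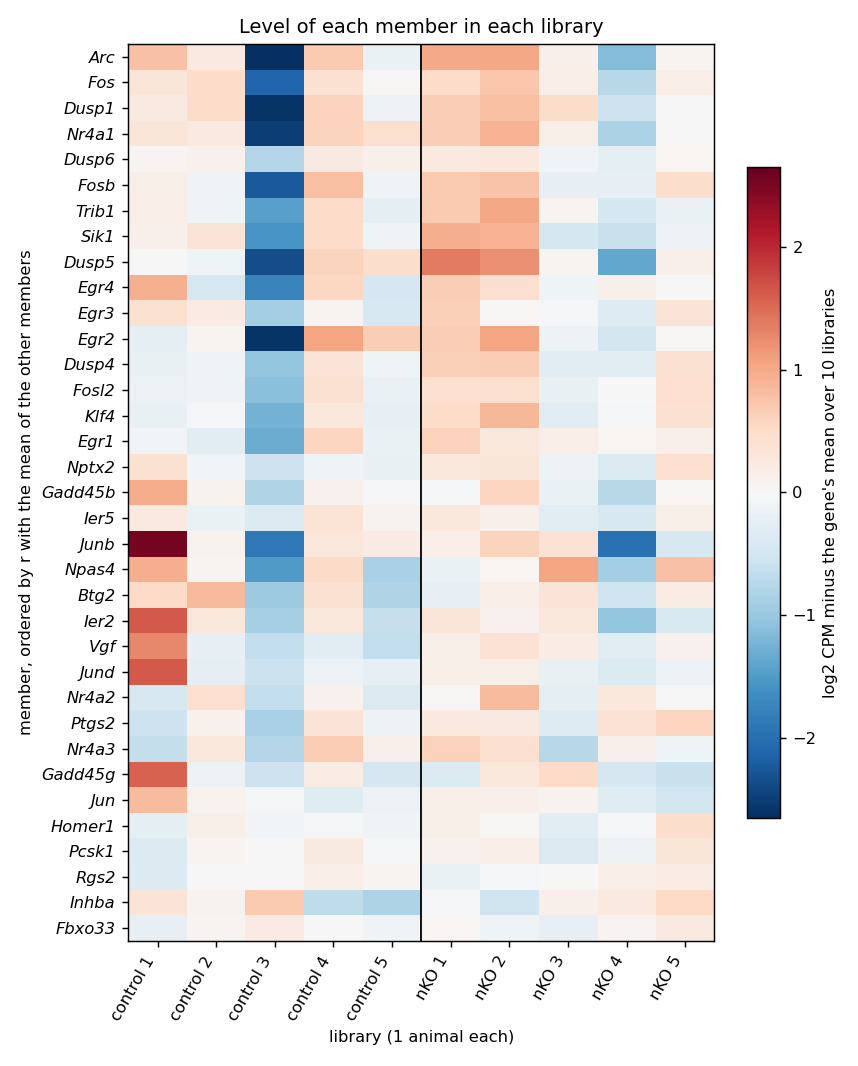
Each row is a member and each column a library; colour gives log2 CPM minus the gene's mean over the 10 libraries, and rows are ordered by the correlation with the mean of the other members. The column of control 3 is low in the upper rows, with a mean deviation of -1.10 over all 35 members, whereas the lowest rows (Rgs2, Inhba, Fbxo33) run against the others.

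Gene positions below are those of RefSeq on mm10. Fos, whose protein pairs with Jun proteins to form the AP-1 factor, shows the pattern of most members (NCBI gene 14281; chromosome 12, 85473890 to 85477274). Its controls 1 to 5 stood at 57.8, 64.7, 10.7, 61.2 and 47.2 CPM and its nKO animals at 64.4, 76.8, 52.1, 27.6 and 52.2 CPM. A single control was far below the rest, the other 4 controls lay inside the range of the nKO animals, and nKO 4 was the lowest of its group. Its log2 fold change between the genotypes was 0.18 (SE 0.43; edgeR adjusted p = 0.964), and -0.08 without control 3. Fosb, a paralog whose truncated product is known for building up under repeated stimulation, ranged from 1.68 CPM in control 3 to 14.3 CPM in control 4, with a log2 fold change of 0.40 (SE 0.42). Fosl2, the Fra-2 gene, was less variable. It stood at 51.3, 53.7, 26.2, 75.3 and 50.7 CPM in controls and at 78.2, 76.1, 49.9, 56.3 and 78.1 CPM in nKO. Here 3 of 5 nKO animals exceeded the highest control, but the groups overlapped and the difference did not pass (log2 fold change 0.40, SE 0.23; edgeR unadjusted p = 0.113, adjusted p = 0.826).

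The Jun partners behaved differently in 1 animal, control 1. Junb, which had the largest SD of all members (1.33; NCBI gene 16477; chromosome 8, 84976909 to 84978748), stood at 90.7, 16.4, 4.10, 19.1 and 18.1 CPM in controls and at 17.6, 23.3, 20.2, 3.86 and 11.5 CPM in nKO. Control 1 was several times above every other library, and control 3 and nKO 4 were both far below. A log2 fold change of -0.95 (SE 0.77; edgeR adjusted p = 0.86) turned to 0.09 without control 1. Jund, the Jun family member with steady expression in most tissues, had 59.2 CPM in control 1 and 12.9 to 21.4 CPM in the other 9 libraries. Jun was at 43.4 CPM in control 1 and at 17.1 to 26.9 CPM elsewhere. Of the 6 AP-1 genes, 3 had a higher and 3 a lower fitted level in nKO, with a median log2 fold change of -0.02.

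Control 1 differed from the other libraries in a way that followed base composition. Over the 35 members the deviation in control 1 was larger the higher the GC content of the gene (Spearman's rho 0.80 across genes, which are not independent replicates), and over 13910 tested genes with a GC value rho was 0.71. In nKO 4 it ran the other way (-0.53 over the members, -0.71 over the tested genes). The 5 members with a GC content of at least 60%, Junb, Jund, Egr4, Ier2 and Vgf, were all highest in control 1. The effective lengths deposited with the counts moved too: that of Junb was 1299.9 bases in control 1 and 406 to 628 in the other libraries. TPM, which divides by this length, put control 1 at 168 TPM for Junb and the other libraries at no more than 102 TPM. With these lengths as offsets in edgeR, an alternative added after the data were seen, the log2 fold change of Junb was -0.43 (SE 0.54), rho for control 1 over the members was 0.44, and the mean deviation over the members was -1.04 in control 3, -0.24 in nKO 4 and 0.06 in control 1, which then was no longer among the highest libraries (nKO 2 at 0.44, nKO 1 at 0.35 and control 4 at 0.32). The median SD of the members then came to 0.48, against 0.16 for all tested genes. Whether composition accounts for the high Jun levels of control 1 was not tested.

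The Egr genes encode zinc-finger factors that bind a GC-rich site, and Egr1 is a common marker of recently active neurons (NCBI gene 13653; chromosome 18, 34861207 to 34864956). Egr1 stood at 112, 98.1, 48.0, 178 and 105 CPM in controls and at 182, 146, 134, 124 and 129.9 CPM in nKO. The nKO animals were close together, 4 of 5 controls lay below all of them, and control 4 lay between the 2 highest nKO values. The log2 fold change was 0.40 (SE 0.26; edgeR unadjusted p = 0.156, adjusted p = 0.843). The value ranged from 0.21 without control 3 to 0.66 without control 4, where the unadjusted p was 0.0132 and the adjusted p 0.73. Egr2 was more variable, at 17.3, 21.8, 3.32, 42.7 and 32.5 CPM in controls and 32.8, 42.7, 18.8, 14.8 and 21.2 CPM in nKO. Both groups reached the same highest value, and the lowest belonged to control 3. The estimate of 0.15 (log2, SE 0.55) turned to -0.14 without control 3. Egr3 and Egr4 were also lowest in control 3, at 50.6 and 1.60 CPM, and had log2 fold changes of 0.22 (SE 0.24) and 0.23 (SE 0.40). The effective length of Egr4 was 909 bases in control 1 and 219 to 305 elsewhere, and with these lengths as offsets its log2 fold change was 0.66 (SE 0.33; edgeR unadjusted p = 0.0708, adjusted p = 0.544). All 4 Egr genes thus had a higher fitted level in nKO, with a median of 0.23 without offsets.

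Nr4a1 encodes NUR77, an orphan nuclear receptor whose activity follows its amount (NCBI gene 15370; chromosome 15, 101253902 to 101274795). It stood at 103, 98.7, 14.6, 125 and 111 CPM in controls and at 130.5, 157, 92.9, 46.3 and 83.4 CPM in nKO. The 4 controls other than control 3 were tightly grouped, in the middle of the nKO range. The log2 fold change was 0.17 (SE 0.52; edgeR adjusted p = 0.973), and -0.10 without control 3. Its paralogs varied less: Nr4a2, needed for dopamine neurons, ranged from 15.4 CPM in control 3 to 43.8 CPM in nKO 2 (log2 fold change 0.36, SE 0.24), and Nr4a3 from 19.9 CPM in control 3 to 55.0 CPM in control 4 (0.10, SE 0.31).

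Npas4, a neuron-restricted factor that responds to calcium entry and hardly to growth factors, followed another order (NCBI gene 225872; chromosome 19, 4984353 to 5003439). Controls stood at 36.2, 19.4, 6.43, 26.3 and 10.1 CPM and nKO animals at 16.4, 19.1, 38.1, 9.81 and 31.9 CPM. Control 3 was again lowest, but control 5 was also low, and the highest values were those of nKO 3 and control 1 rather than nKO 2. In TPM the highest were nKO 3 (37.0), nKO 5 (32.7) and control 1 (27.2). The log2 fold change was 0.23 (SE 0.49; edgeR adjusted p = 0.961).

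Among the other regulators of transcription, Klf4, a zinc-finger factor expressed widely outside neurons as well, had the smallest p of all 35 members (NCBI gene 16600; chromosome 4, 55527137 to 55532475). Its levels were low, at 4.83, 5.34, 2.25, 6.79 and 4.79 CPM in controls and 7.87, 10.4, 4.51, 5.36 and 7.45 CPM in nKO. The 3 highest values were all from nKO animals, and the lowest was control 3. The estimate for Klf4 was a log2 fold change of 0.58 (SE 0.28, 95% interval -0.03 to 1.18; edgeR unadjusted p = 0.0607, adjusted p = 0.82). It was 0.39 without control 3. Ier2 (log2 fold change -0.49, SE 0.46) was highest in control 1 and lowest in nKO 4, and came to -0.20 (SE 0.29) with effective length offsets. Btg2, an antiproliferative cofactor, was at -0.14 (SE 0.34) and Ier5 at -0.07 (SE 0.16).

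The dual-specificity phosphatases Dusp1, Dusp4, Dusp5 and Dusp6 remove phosphate from MAP kinases and so end the signal that induced them. All 4 had a higher fitted level in nKO, with a median log2 fold change of 0.38, and all were lowest in control 3, which pulls down the control level of each. For Dusp1 (0.32, SE 0.49) and Dusp6 (0.07, SE 0.17) the estimate was below its SE. The median of Dusp6 was 143 CPM in controls and 137 CPM in nKO. Dusp5, specific for ERK in the nucleus, stood at 2.96, 2.76, 0.492, 4.57 and 4.17 CPM in controls and at 7.99, 7.10, 3.15, 1.07 and 3.28 CPM in nKO. The values of nKO 1 and nKO 2 exceeded every control, but those of nKO 4 were below 4 of 5 controls. Its log2 fold change was 0.61 (SE 0.56; edgeR adjusted p = 0.87). Dusp4 stood at 8.21, 8.69, 4.51, 12.1 and 8.75 CPM in controls and 14.7, 14.8, 7.78, 7.61 and 12.5 CPM in nKO. In Dusp4, too, 3 nKO animals lay above all controls and the other 2 below 4 of 5 controls (log2 fold change 0.45, SE 0.26; edgeR unadjusted p = 0.112, adjusted p = 0.826). Dusp1 ranged from 4.71 CPM in control 3 to 50.8 CPM in nKO 2. Dusp6, the ERK phosphatase of the cytoplasm, had the smallest relative range of the 4, from 77.0 to 160.4 CPM, again with control 3 lowest.

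Ptgs2, the cyclooxygenase-2 gene that is induced by synaptic activity in cortical neurons, had the next smallest p after Klf4. It stood at 26.5, 42.4, 21.4, 49.2 and 35.5 CPM in controls and at 46.5, 46.3, 30.9, 51.0 and 57.7 CPM in nKO. Here 2 nKO animals were above every control and nKO 3 was below 3 of them (log2 fold change 0.41, SE 0.22, 95% interval -0.07 to 0.90; edgeR unadjusted p = 0.0893, adjusted p = 0.82). Sik1, a salt-inducible kinase that restrains CREB coactivators, and Trib1, a pseudokinase, both went with Fos across animals, from 5.33 to 31.3 CPM and from 4.67 to 26.4 CPM, lowest in control 3 and highest in nKO 1 and nKO 2 respectively. The stress genes Gadd45b and Gadd45g were highest in control 1, at 12.7 and 6.76 CPM. Rgs2, which shortens G protein signals, stood at 48.0, 62.1, 62.0, 69.8 and 64.9 CPM in controls and 54.8, 59.8, 61.7, 70.0 and 71.1 CPM in nKO. Fbxo33, an F-box protein, stood at 96.2, 117, 129, 111 and 105 CPM in controls and 115, 104, 96.6, 118 and 131 CPM in nKO. These 2 members had the smallest SDs (0.18 and 0.17). Control 3 was near the middle of its group for Rgs2 and the highest control for Fbxo33, and in both the lowest value was that of control 1. Their log2 fold changes were 0.05 (SE 0.11) and 0.02 (SE 0.10).

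Arc, a capsid-forming protein that drives the internalisation of AMPA receptors at active synapses, was the member nearest to the shared pattern (Pearson's r 0.99 with the mean of the other members across the 10 libraries, a description). It lies on chromosome 15, 74669081 to 74672570 (NCBI gene 11838). Controls stood at 426, 297, 39.2, 399 and 220.4 CPM, and nKO animals at 494, 506, 271, 112 and 261 CPM. On this scale controls 1 and 4 were close to the highest nKO animals, and control 3 was below every other library, so the groups overlapped over most of their range. The effective length of Arc was 2820 bases in control 1 and 1462 to 2087 in the other libraries. Per length, control 1 stood at 363 TPM and control 4 at 545 TPM, against 660 and 662 TPM in nKO 1 and nKO 2. For Arc the estimate was 0.25 on the log2 scale (SE 0.60, with a 95% interval of -1.11 to 1.61; edgeR adjusted p = 0.966), and -0.03 without control 3. Per length, Arc was one of the 2 most abundant members, with a median of 372 TPM. Homer1 had the highest median level, 494 TPM. Vgf (220.4 TPM), Dusp6 (162 TPM), Nr4a1 (152 TPM) and Egr1 (147 TPM) followed, and Klf4 (8.12 TPM) and Fosb (7.87 TPM) were the lowest. The ranges of neighbours in that order overlapped over the libraries.

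**Figure D4:**
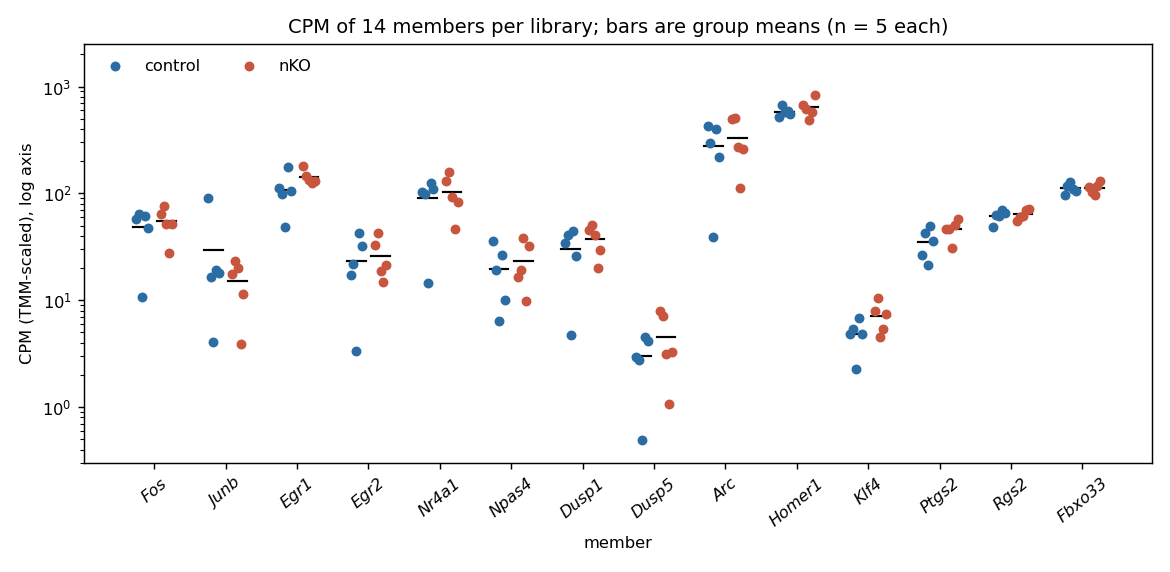
CPM (TMM-scaled, log axis) of 14 members in each library, with controls in blue and nKO animals in red, 5 each, and a bar at the group mean. For Arc the controls run from 39.2 to 426 CPM and the nKO animals from 112 to 506 CPM, while the 10 values of Rgs2 lie between 48.0 and 71.1 CPM.

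Homer1 (NCBI gene 26556; chromosome 13, 93303757 to 93405129) encodes a scaffold of the postsynaptic density and makes long transcripts, present at all times, as well as a short one, Homer1a, which activity induces and whose product uncouples the long proteins. The gene total stood at 516, 674, 575, 591 and 556 CPM in controls and at 673, 621, 490.0, 581 and 836 CPM in nKO (log2 fold change 0.14, SE 0.12; edgeR adjusted p = 0.867). Control 3 was in the middle of its group here. The short transcript, NM_011982 with 186 residues, stood at 129, 208, 127, 223 and 187 TPM in controls and at 246, 279, 142, 169.8 and 319.6 TPM in nKO. The long transcripts together, NM_147176 (366 residues) and NM_152134 (370 residues), stood at 206, 260.0, 269, 229.8 and 234 TPM in controls and at 268, 246, 221, 231 and 314 TPM in nKO. A further long one, NM_001284189, was listed at 0 in all libraries, and NM_001347598, at 28.2 to 111 TPM, had no entry from which to tell its form.

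As a share of all Homer1 transcripts, the short form made up 36.4% ± 5.20 of controls' total and 41.0% ± 5.26 of that in nKO (mean ± SD, n = 5 animals each). The difference of 4.58 percentage points was within the spread of the animals (exact two-sided permutation test, p = 0.206). Across animals the lowest share, 29.9%, belonged to control 3, the animal with the lowest Fos and Arc, and the highest shares, 46.3% and 45.9%, to nKO 5 and nKO 2. Other animals did not keep to the order of Fos and Arc. The next lowest share, 33.3%, was that of control 1, with Arc at 426 CPM (363 TPM). In nKO 5 Fos was at 52.2 CPM and Arc at 261 CPM, inside the range of the other libraries. In control 3 the short transcript was the lowest of all libraries while the long ones were the highest of the 5 controls. The mean level of the short transcript was 175 ± 44.6 TPM for controls against 231 ± 74.3 TPM for nKO (n = 5 animals each, ± SD; p = 0.198 by the exact permutation test). For the long transcripts it was 239.7 ± 25.2 against 256 ± 36.7 TPM (n = 5 animals each, ± SD; p = 0.46 by the same exact test). The files do not show how surely reads were divided among transcripts that share sequence.

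**Figure D5:**
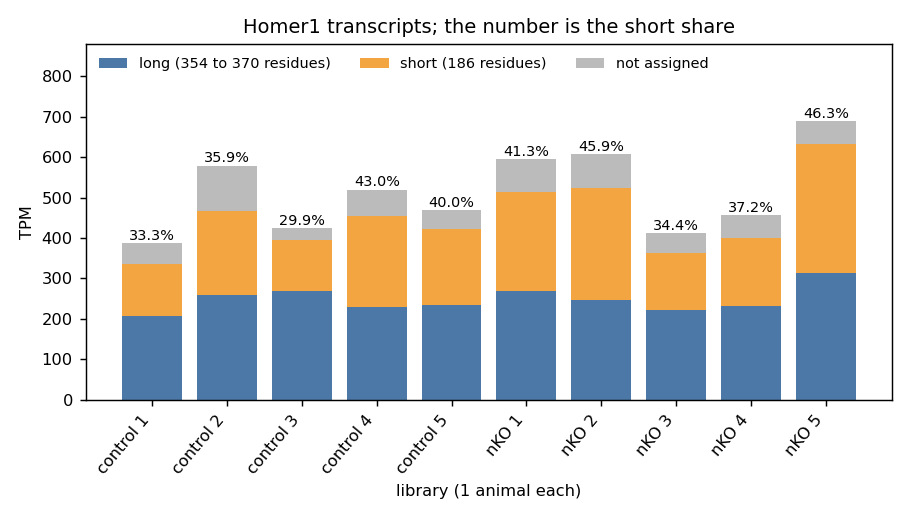
Stacked TPM of the Homer1 transcripts in each library, long forms in blue, the short form in orange and the transcript of unassigned form in grey; the number above each bar is the short share of the total. The share runs from 29.9% in control 3 to 46.3% in nKO 5, and the groups overlap.

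Transcripts of the other members gave no call. Of 47 member transcripts 44 passed the count filter, and 0 passed 5% between the genotypes by edgeR's quasi-likelihood test (0% of 22343 transcripts), with 0 of the 44 at an unadjusted p under 0.05. The usage test of edgeR (Simes) covered 6 member genes, Arc, Egr3, Fosb, Homer1, Jund and Nr4a2, and called 0 of them (0.0634% of 4732 genes). The smallest Simes p among the 6 was 0.337, for Fosb. Jund has a pair of transcripts of equal length (2878 bases), and several libraries gave all of its reads to 1 of them: NM_010592 was at 0 TPM in control 2 and at 37.0 TPM in nKO 4, where NM_001286944 was at 36.9 and 0 TPM. Only their sum is used here.

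The secreted and processing proteins split into genes that followed the pattern and genes that did not. Nptx2, a pentraxin that gathers AMPA receptors, was lowest in control 3 at 26.8 CPM and highest in nKO 5 at 53.3 CPM (log2 fold change 0.21, SE 0.19). Inhba, the activin A subunit, was highest in control 3 at 35.9 CPM and lowest in control 5 at 12.7 CPM (0.07, SE 0.28). Pcsk1, the protease that cuts prohormones in dense-core vesicles, had a small SD (0.26) and control 3 near its middle (171 CPM). Vgf, the precursor of neuropeptides with roles in plasticity, depended on the scale (NCBI gene 381677; chromosome 5, 137025301 to 137033351). On the CPM scale it stood at 142, 50.4, 37.4, 48.2 and 37.0 in controls and at 65.2, 76.1, 67.3, 47.5 and 63.4 in nKO, with control 1 far above all others (log2 fold change 0.02, SE 0.35; edgeR adjusted p = 0.996). Per length it stood at 198, 210.1, 163, 180.2 and 132 TPM in controls and at 231, 260.1, 231, 263 and 257 TPM in nKO, so that every nKO animal was above every control. Vgf was the only member without overlap in TPM (1 of 35, against 2.56% of all tested genes). With the deposited effective lengths as offsets, its log2 fold change was 0.43 (SE 0.12) and its SD 0.22 in place of 0.59 (edgeR unadjusted p = 0.00274, adjusted p = 0.441). Without control 1 and with no offsets it was 0.56 (edgeR unadjusted p = 0.000936, adjusted p = 0.563). None of these fits passed 5%, and Vgf was singled out after its values were seen. The effective length of Vgf was 1724 bases in control 1 and 483 to 800 in the other libraries; the part of this in the result was not tested.

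The members moved together across animals. Over the 595 pairs of members the median Pearson's r of log2 CPM was 0.53, compared with -0.004 over pairs of all tested genes, and 0.36 without control 3. These correlations share the libraries and their scaling and are given as a description. Among 12 pairs chosen for test, Fos went with Dusp1 (r = 0.98, rho = 0.87), Nr4a1 (r = 0.98, rho = 0.77) and Arc (r = 0.98, rho = 0.90). The permutation p of r was 5e-05, 0.00034 and 5e-05, and 0.0003, 0.00136 and 0.0003 after adjustment over the 12 pairs. For rho the permutation p was 0.00202, 0.0123 and 0.00064. The pairs of Fos with Fosb (r = 0.92, rho = 0.78), Egr1 (r = 0.81, rho = 0.49), Nptx2 (r = 0.73, rho = 0.68), Junb (r = 0.72, rho = 0.50) and Npas4 (r = 0.71, rho = 0.37), and that of Arc with Egr4 (r = 0.85, rho = 0.75), also had an adjusted permutation p of r under 0.05, from 0.0057 to 0.0382. The adjusted permutation p of rho ran from 0.0368 to 0.298 over these 6 pairs. Fos with Vgf (r = 0.50, rho = 0.60), Jund (r = 0.42, rho = 0.66) and Homer1 (r = 0.19, rho = 0.53) did not pass (adjusted permutation p of r 0.153, 0.153 and 0.559). With effective length offsets Fos and Homer1 had r = 0.57 and rho = 0.71 (adjusted permutation p 0.0729 and 0.0624).

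The correlations were lower without the 2 libraries farthest from the median of the first gene, control 3 and nKO 4 in every pair. Without them 0 of 12 pairs passed 5% after adjustment. Fos still had r = 0.86 with Dusp1, 0.83 with Arc and 0.71 with Nr4a1 over the 8 animals left (exact permutation p 0.006, 0.0117 and 0.0463; adjusted 0.0657, 0.0657 and 0.139), and Arc had 0.85 with Egr4 (exact permutation p 0.0164, adjusted 0.0657). For Fos r came to 0.60 with Fosb, 0.37 with Egr1, 0.33 with Nptx2, 0.10 with Junb and -0.04 with Npas4 (exact permutation p 0.114, 0.369, 0.435, 0.82 and 0.929). The libraries left out were the extremes of the first gene. A lower r and a larger p can follow from the narrower range and the 8 animals alone. Whether these 5 relations hold among the animals left is therefore not settled. Against the mean of the other members, r was above 0.9 for Arc, Fos, Dusp1, Nr4a1, Dusp6, Fosb, Trib1 and Sik1, and below 0 for Rgs2 (-0.32), Inhba (-0.48) and Fbxo33 (-0.49). Without control 3, r was above 0.9 for Arc alone (0.97), and below 0 for Rgs2 (-0.57), Fbxo33 (-0.21), Inhba (-0.18) and Ptgs2 (-0.11).

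The 8 genes outside the list whose log2 CPM went most closely with the mean of the members, among 13692 genes with a mean CPM of at least 1, were Spns2, Arl4d, Pdxk, Adgra1, Bcl2l1, Gpatch2l, Gpr3 and Midn (r 0.98 to 0.96 over the 10 libraries). Each was lowest in control 3, but so was the mean they were matched to, so this follows in large part from how they were picked. Without control 3 their r with that mean was 0.86 to 0.96. Arl4d ranged from 6.07 to 24.4 CPM and Midn from 5.37 to 32.0 CPM, and these 2 and Gpr3 are themselves on a list of other activity-induced genes. Gpatch2l had a narrow range, from 41.1 to 53.8 CPM.

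Promoter sequence upstream of the start site is shown for 4 members. The CPM of Fos and Dusp5 went closely with the mean of the other members (r 0.96 and 0.89 over the 10 libraries). That of Homer1 and Rgs2 did not (r 0.18 and -0.32). The sequences are from RefSeq on GRCm38.p6, the assembly of mm10, 120 bases up to the base before the annotated start, and capitals mark matches to the motifs named after them. Fos lies on the plus strand at chr12:85473770-85473889, Dusp5 on the plus strand at chr19:53529025-53529144, Homer1 on the plus strand at chr13:93303637-93303756 and Rgs2 on the minus strand at chr1:144004150-144004269.
Fos: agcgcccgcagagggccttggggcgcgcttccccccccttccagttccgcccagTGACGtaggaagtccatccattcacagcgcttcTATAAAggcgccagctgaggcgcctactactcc
Dusp5: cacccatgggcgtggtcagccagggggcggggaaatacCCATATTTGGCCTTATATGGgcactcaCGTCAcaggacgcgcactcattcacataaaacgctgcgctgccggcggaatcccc
Homer1: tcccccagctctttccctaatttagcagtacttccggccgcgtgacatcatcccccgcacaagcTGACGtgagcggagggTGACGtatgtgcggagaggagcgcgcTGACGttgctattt
Rgs2: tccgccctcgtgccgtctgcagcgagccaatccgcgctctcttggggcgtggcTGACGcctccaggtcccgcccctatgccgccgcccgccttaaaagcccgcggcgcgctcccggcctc

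In Fos the capitals are the core of the CREB site, TGACG, 66 bases before the start, and a TATA box, TATAAA, 33 bases before it. In Dusp5 a pair of CArG boxes, the site of SRF, stand end to end (82 and 72 bases before the start), followed by the CREB core on the other strand, CGTCA, 55 bases before it. Homer1 has 3 CREB cores within 56 bases of the start shown, and its other listed start has no match. In the 120 bases shown, Rgs2 has 1 core, at 67 bases. Farther from the start, Rgs2 and Fos each have another core, at 185 and 129 bases. Rgs2 also has a match to the Egr site named below, at 176 bases. Of the 35 members 26 had an entry in the promoter table, with 31 windows of 250 bases before to 50 after a start. TGACG or its reverse was in 61.3% of these windows, against 20.8% of all promoters in the table. The palindrome TGACGTCA was in 9.68% (1.79% of all), the CArG box in 16.1% (1.63%), GCGNGGGCG, the Egr site, in 25.8% (5.55%), and TATAAA on the plus strand in 16.1% (8.32%). The AP-1 site TGANTCA was in 0 of 31 windows (7.81% of all). All but TATAAA were searched on both strands, the core also counts inside the palindrome, and starts of 1 gene share sequence. Counted by gene, the core was in 17 of 26 members, the palindrome in 3, the CArG box in 2 (Egr2 and Dusp5), the Egr site in 8 and TATAAA in 5. Besides Fos, some members with a higher r than Dusp5 had matches in the 120 bases before their start (Nr4a1 and Fosb). Others had none there (Dusp1 and Dusp6). A match says only that these letters are there.

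Of 39 tested genes on a list of other activity-induced genes, 33 had a higher fitted level in nKO (47.8% of all tested genes; median log2 fold change 0.14), 0 passed 5%, and 15 were lowest in control 3. With single libraries left out, this count ran from 23 of 39 without nKO 1 to 35 of 39 without control 2. It was 25 of 39 without control 3 (median 0.06), without nKO 2 (0.08) and without control 5 (0.09). Nrn1, a neuritin that promotes neurite growth, had the smallest p, with 207 ± 42.8 CPM in controls and 270.1 ± 25.0 CPM in nKO (SD, n = 5 each) and no overlap (log2 fold change 0.39, SE 0.14; edgeR unadjusted p = 0.0153, adjusted p = 0.82). The synaptotagmin Syt4 (0.35, SE 0.17) and Zfp36, an RNA-decay factor (0.64, SE 0.34), followed. Among 34 genes of the calcium, kinase and transcription factor route to the members, 25 had a higher fitted level (median 0.05) and 0 passed 5%. The smallest p was that of Elk4, a partner of SRF, at 16.8 ± 2.29 CPM in controls and 21.6 ± 0.903 CPM in nKO (SD, n = 5 each; log2 fold change 0.36, SE 0.10; edgeR unadjusted p = 0.00391, adjusted p = 0.82), and the MEF2 factors Mef2a (0.19, SE 0.07) and Mef2d (0.28, SE 0.14) came next. Of genes induced by glucocorticoid, 9 of 11 had a higher fitted level (median 0.10), where the share over all tested genes was 47.8%. Of heat shock genes, 6 of 7 had a lower one (median -0.08). With single libraries left out, the glucocorticoid count ran from 7 (without control 3 or nKO 1, medians 0.02 and 0.01) to 11 (without nKO 3). The heat shock count came down to 4 without control 2 (median -0.04). Neither list had a gene past 5%.

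Markers of cell types moved with the pattern in part. All markers had counts in at least 1 library. Summed over 12 excitatory neuron markers, control 3 had the lowest level of the 10 libraries, 1892 CPM, against 1892 to 2992 CPM over the controls and 2264 to 2679 CPM over the nKO animals, and its mean deviation over these markers was -0.39. It was -0.19 over 10 inhibitory neuron markers (887 to 1023 CPM in controls, 856 to 975 CPM in nKO), where the sum in control 3 was 952 CPM. The 6 tested blood cell markers had a mean deviation of 1.45 in control 3, with a sum of 44.4 CPM there, 19.4 to 53.0 CPM in controls and 8.67 to 42.4 CPM in nKO. The fitted level of 5 of these 6 was lower in nKO (median log2 fold change -0.86), 3 had an unadjusted p under 0.05 by edgeR and 0 passed 5%. In the same library it was -0.01 over 8 astrocyte markers, 0.05 over 8 microglia markers, -0.05 over 8 oligodendrocyte markers, -0.12 over 10 endothelial and mural markers, -0.06 over 8 striatal markers and 0.02 over 4 hippocampal markers. Summed over the astrocyte markers, the controls ran from 5215 to 5696 CPM and the nKO animals from 5726 to 6543 CPM, without overlap. Yet 6 of these 8 markers had a lower fitted level in nKO and 2 a higher one. No marker passed 5%. The part of these differences in the levels of the members was not tested.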

How the data were processed

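Per the labels' protocols, total RNA of frozen mouse cortex was extracted with TRIZOL, treated with DNase and made into stranded libraries after removal of ribosomal RNA, with a fragmentation time of 6 minutes. Tools named in the submitters' processing notes are bcl2fastq, Salmon and DESeq2, with mm10 as the build; no version or role is stated there, and the annotation is not given in the sources consulted. Per the file headers, the authors deposited for each library estimated counts, TPM (divided by effective length, with 1 total for all libraries) and effective lengths, by gene and by RefSeq transcript.

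The estimated counts were rounded. filterByExpr (minimum count 10, minimum total 15) kept 14378 genes. CPM are TMM-scaled, and SDs are of log2 CPM with a prior count of 2. The genotypes were compared with edgeR 4.0.16 (robust quasi-likelihood F test, R 4.3.3), and p-values were adjusted by Benjamini-Hochberg over every tested gene or transcript, at 5%. The SE was derived from the fold change and its F statistic. Transcript usage was tested with diffSpliceDGE, and the Homer1 share by an exact permutation test, whose smallest possible p is 0.00794. Correlations had 100000 permutations (scipy 1.17.1), or all of them for 8 libraries. Homer1 transcripts count as short with at most 200 residues in the GENCODE entry linked to them. The p-values of the genotype tests set a difference against the spread between libraries, in which animals, sampling and library making are not separated. The edgeR test of genes and the transcript usage test were checked on simulated counts, the latter with the same dispersion for every transcript. The permutation tests were not checked in this way.

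All 35 members could be named. The value of every library is given for Fos, Egr1, Arc, Npas4, Nr4a1, Homer1, the 4 members with the smallest p, the 4 with the largest and the 2 with the smallest SD, and also for Vgf, chosen after its values were seen. Outside them, the targeted gene, the 8 genes most like the members and up to 3 genes of a context list were named. The members, the lists (other activity-induced genes, the route upstream, glucocorticoid and heat shock genes, markers of 9 cell types or regions) and the rules were chosen with earlier results of these data known. Alternatives were DESeq2 1.42.0, limma-voom (limma 3.58.1), other scalings and count filters, libraries left out singly or in pairs, and effective length offsets; the last, and leaving out controls 1 and 3 together, were added after seeing the data.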

Additional observations from a re-analysis of the deposited data

Results flagged for a closer look

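In each group of 5 animals, the gap from the lowest or highest value to its nearest neighbour was divided by the range of the group, and 8 of 74 such groups of log2 CPM (or of a mean or share over the members) passed Dixon's critical value. Chance alone passes about 1 in 20. All 8 were control groups. In 6 the animal apart was control 3, at the low end: Nr4a1 (ratio 0.889), Dusp6 (0.834), Fos (0.824), Dusp1 (0.762), Dusp5 (0.762) and Arc (0.724). In 2 it was control 1, at the high end: Jund (0.812) and Vgf (0.772). The values of these animals stand beside the genes above. The 6 genes low in control 3 move together across animals, so these are not 6 independent signs, and no cause was tested.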

How the results depend on the processing

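No paired analysis was possible because the labels give no replicate numbers or litters shared between the genotypes. No member passed 5% under any of the 19 alternatives to the gene fit. DESeq2 called 5 genes in all in place of 2, and 0 of 12 correlations passed without the 2 farthest libraries, in place of 9; there r of Fos and Npas4 was -0.0379. Leaving out 1 library at a time, the members with a higher fitted level in nKO numbered 19 to 29, their median log2 fold change was 0.04 to 0.29, their median SD 0.47 to 0.61, those above the dispersion trend 32 to 34, those lowest in a single library 17 to 27, and the difference in the short Homer1 share 2.95 to 6.24 percentage points. Over all these alternatives 21 of 35 members turned sign at least once. Among the members given in every library by rule, the fold changes that turned ranged, with 1 library left out, on the log2 scale from -1.24 to 0.0937 (Junb), -0.0804 to 0.34 (Fos), -0.0302 to 0.46 (Arc), -0.10 to 0.35 (Nr4a1), -0.14 to 0.48 (Egr2), -0.0276 to 0.58 (Npas4), -0.0280 to 0.0986 (Rgs2) and -0.0448 to 0.0729 (Fbxo33). Without control 1 and nKO 4, 31 members had a higher fitted level (median 0.34), and Junb came to 0.34, Fbxo33 to -0.0585 and Rgs2 to -0.0751. Without controls 1 and 3, 23 did (median 0.08), and Fos came to -0.0801, Nr4a1 to -0.13, Egr2 to -0.31 and Rgs2 to -0.0490. With effective length offsets, 26 did (median 0.24), and Fbxo33 came to -0.00363. The cause of these changes was not tested. Members of few counts, such as Dusp5 and Gadd45g, had the least precise levels per library.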
